A study of Homo sapiens with 18 samples.

Results

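RNA of 33 genes that signal or repair DNA double-strand breaks was followed in hTERT RPE-1 cells that had been starved of serum and then given etoposide or not. The genes were given by symbol, and all 33 matched 1 Ensembl identifier each among the 58051 genes counted in every library. This line derives from human retinal pigment epithelium and was made immortal by telomerase. Per the labels' protocols, cells grown in 10% serum were kept in 0.1% serum for 48 h and exposed to 50 µM etoposide for 30 min, after which 10 µM triptolide was used to stop transcription. Etoposide traps topoisomerase II on cut DNA, and triptolide acts on a subunit of the general transcription factor TFIIH. The arm that the titles call DMSO is marked as not treated with etoposide, the arm called ETOP as treated. Each arm has the time points 0, 20 and 40, with 3 libraries per group, which the labels number 1 to 3 and call independent, and 18 libraries in all. The unit of the time points is not stated, nor is it stated whether triptolide had been added at time point 0.

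A double-strand break is first recognised by the MRE11-RAD50-NBN complex and by the Ku heterodimer, and the kinases ATM, ATR and DNA-PKcs then phosphorylate chromatin and repair factors around it. Non-homologous end joining ligates the ends directly and acts throughout the cell cycle. Homologous recombination cuts the ends back and copies the sister chromatid, so it acts mainly after DNA replication, and a back-up pathway of end joining uses short matching stretches with PARP1 and DNA polymerase theta. The proteins are mostly regulated by modification and recruitment to the break, which RNA counts do not measure.

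Total counts ranged from 7957691 to 11580219 per library. Values are given as CPM, the usual library-scaled counts, here with TMM-adjusted library sizes, and levels are compared between genes as RPKM, which is CPM per kilobase of mRNA. The mRNA length is that of the longest-coding transcript of a gene, and ranks by RPKM depend on this choice. A count of 3, the floor used for detection, was worth 0.259 to 0.377 CPM, and this floor covers counting error only. The values are relative to the other RNAs of a library, and in these bulk samples fewer cells of a type and less RNA per cell cannot be told apart. Replicate 3 stood apart from replicates 1 and 2 in every group, as described for the members further on. The labels give the cell cycle stage as G0/G1. RNAs of proliferating cells were nevertheless present in all libraries, with MKI67 at 167 to 457 CPM and TOP2A, a target of etoposide, at 330 to 506 CPM. All 17 listed S phase genes and all 14 listed G2 and M phase genes had a median above 1 CPM, with summed levels of 2112 to 2821 and 1819 to 2520 CPM. Their part in the levels of the repair genes was not tested. Of 12 markers of retinal pigment epithelium, 7 had a median above 1 CPM, among them KRT8 and KRT18, while RPE65 had a median of 0.109 CPM and TTR was at 0 in all libraries. Markers of other epithelia (CDH1 and KRT5 at 0) and of blood (HBB and HBA1 at 0) summed to at most 1.45 and 1.30 CPM. Of 8 fibroblast markers, 5 had a median above 1 CPM, with THY1 at 520, PDGFRB at 122, COL1A1 at 27.8, PDGFRA at 23.1 and DCN at 2.38 CPM. The others were low, with COL3A1 at 0.329, LUM at 0.191 and COL1A2 at 0.0881 CPM.

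The 33 genes spanned a wide range of RNA levels, and the 2 Ku subunits stood far above all others. XRCC6, which encodes Ku70, had the highest level at 170 ± 18.2 RPKM, and XRCC5, which encodes Ku80, had 138 ± 7.86 RPKM (mean ± SD over 18 libraries, as for all RPKM values here). These levels exceeded those of 97.0% and 96.1% of the 14186 genes tested. The next were CHEK1, the effector kinase downstream of ATR, at 42.5 ± 8.28 RPKM, PARP1, a sensor of DNA ends and nicks, at 36.6 ± 1.58 RPKM, and RBBP8, which encodes the resection factor CtIP, at 24.2 ± 2.15 RPKM. The order of these genes depends on the length used. For CHEK1 it was 1670 bases, while its annotated exons together cover 6558 bases. For PARP1 these lengths were 3958 and 7169 bases, and for RBBP8 2962 and 5091 bases. In median CPM, PARP1 (145) lay above RBBP8 (71.0) and CHEK1 (66.1). The lowest 3 were BRCA2, a mediator of homologous recombination, at 1.09 ± 0.507 RPKM, MDC1, the reader of phosphorylated histone H2AX, at 0.998 ± 0.746 RPKM, and NHEJ1, the end-joining factor XLF, at 0.148 ± 0.0984 RPKM. The MDC1 mean includes the replicate 3 libraries, where it had at most 0.1105 CPM. In replicates 1 and 2 MDC1 had a mean of 11.3 CPM and BRCA2, with the longer mRNA, 9.14 CPM. The order of these 2 genes was thus reversed there.

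**Figure D1:**
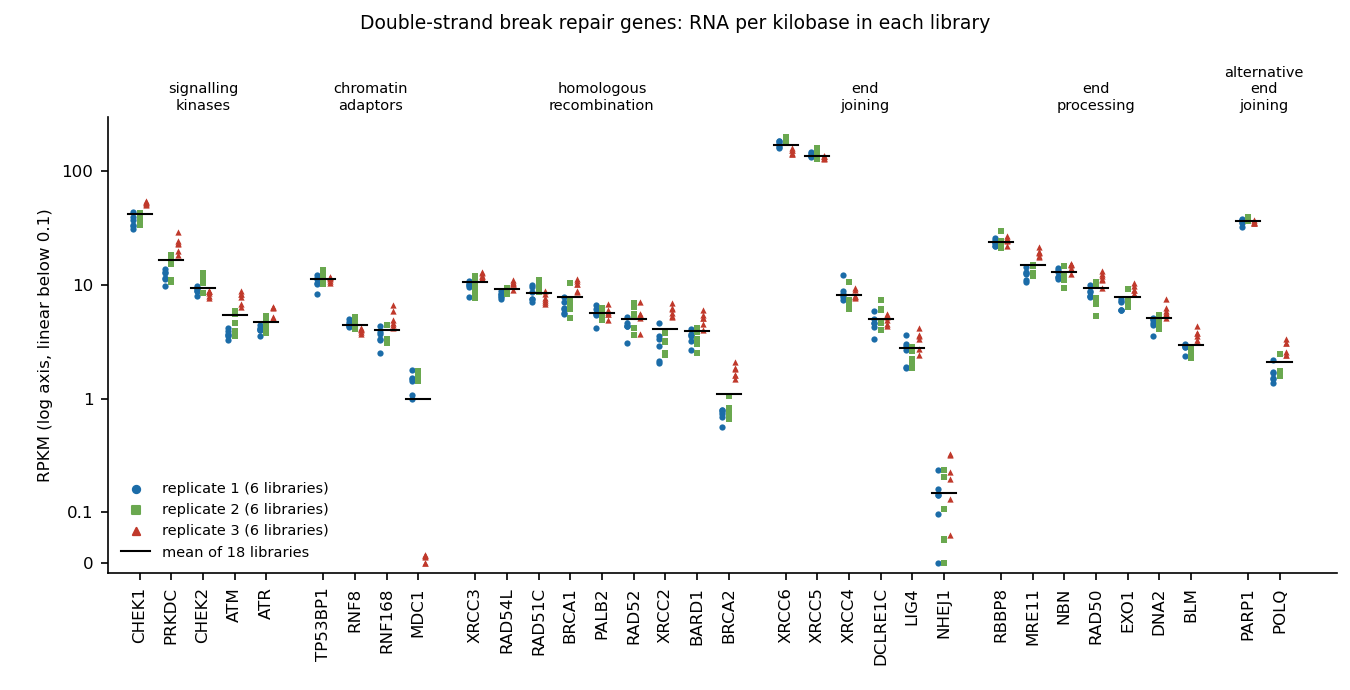
RPKM (log axis, linear below 0.1) of the 33 genes in each of the 18 libraries, grouped by role and ordered by mean within a role; points are libraries, coloured and shaped by replicate number, and bars are means. XRCC6 and XRCC5 lie near 170 and 138 RPKM, MDC1 is near 0 in the replicate 3 libraries, and the replicate 3 points of BRCA2, ATM and PRKDC lie above the others.

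Among the kinases, PRKDC, the catalytic subunit of DNA-PK, had 16.6 ± 5.57 RPKM, more than ATM at 5.45 ± 1.90 and ATR at 4.72 ± 0.924 RPKM. CHEK2, the effector kinase downstream of ATM, had 9.50 ± 1.42 RPKM. The 3 subunits of the MRE11 complex had similar RPKM, with MRE11 at 15.0 ± 3.39, NBN at 13.0 ± 1.76 and RAD50 at 9.37 ± 2.13 RPKM. Their order depends on the length used, which for MRE11 was 2684 bases, while its annotated exons together cover 7689 bases. The chromatin adaptor TP53BP1, which favours end joining, had 11.23 ± 1.152 RPKM, and the ubiquitin ligases RNF8 and RNF168, which act in turn at breaks, had 4.42 ± 0.441 and 4.02 ± 1.05 RPKM.

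The recombination genes other than BRCA2 had 3.97 to 10.6 RPKM. BRCA1 had 7.88 ± 2.01 RPKM and its partner BARD1, with which it forms a ubiquitin ligase, 3.97 ± 0.970 RPKM. PALB2, which links BRCA1 to BRCA2, had 5.66 ± 0.648 RPKM, and RAD52, which anneals single strands, had 5.02 ± 1.09 RPKM. XRCC3, RAD51C and XRCC2, which act in homologous recombination, had 10.6 ± 1.59, 8.52 ± 1.198 and 4.07 ± 1.54 RPKM. The helicase gene RAD54L had 9.15 ± 1.03 RPKM. In end joining, DCLRE1C, the nuclease Artemis that trims ends before ligation, had 5.04 ± 0.917 RPKM. For the ligation step, XRCC4 had 8.19 ± 1.45 RPKM and LIG4, the ligase that XRCC4 holds, 2.78 ± 0.670 RPKM. EXO1 at 7.77 ± 1.32, DNA2 at 5.09 ± 0.898 and BLM at 2.97 ± 0.592 RPKM serve long-range resection, and POLQ, the polymerase of the back-up pathway, had 2.09 ± 0.616 RPKM.

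NHEJ1 was the single member that did not pass edgeR's filter on low counts. It had 51 counts in 18 libraries together and 0 to 6 in any one, so that it was at or near the floor in all groups. In GENCODE 29, 65.4% of its exonic bases also lie in AC068946.1, a gene annotated on the same strand (ENSG00000280537), which itself had 0 to 11 counts per library. How the counting treated reads of overlapping genes is not given in the sources used here. Overlaps on the opposite strand covered 76.7% of the exonic bases of XRCC3 (by KLC1), 28.7% of TP53BP1 (by TUBGCP4) and 25.1% of RAD54L (by LRRC41). The library kit keeps the strand, but the strand setting of the counting is not given, so counts of these 3 genes may hold reads of the partner. A same-strand gene, AC116366.3, covered 79.7% of RAD50.

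The first question was whether repair gene RNA differed between etoposide and DMSO. No member passed the test at any time point. ATM had 47.6, 47.0 and 117 CPM with DMSO and 51.8, 73.6 and 109 CPM with etoposide at time point 0 (replicates 1, 2 and 3). CHEK1 had 61.9, 59.5 and 89.9 CPM with DMSO against 55.2, 62.9 and 88.4 CPM with etoposide. For both, replicate 3 was high in both arms and the arms overlapped. The RNA of TP53BP1 was at 106, 108 and 119 CPM with DMSO and 108, 133 and 123 CPM with etoposide, again with overlap.

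In the quasi-likelihood test of edgeR with Benjamini-Hochberg adjustment over 14186 genes, 0 of 32 tested members were called at time point 0, where 0% of all genes tested were called. The same held at 20 (0 of 32, background 0%), at 40 (0 of 32, background 0%) and for the mean of the 3 time points (0 of 32, background 0%). At an unadjusted p under 0.05 there was 1 member at time point 0 (background 2.62%), and there were 0 at 20 (0.754%), 0 at 40 (1.01%) and 0 for the mean (1.8%). DESeq2 and limma-voom also called 0 members in these comparisons. The median log2 difference of the members, etoposide minus DMSO, was −0.04 at 0, 0.06 at 20, −0.08 at 40 and −0.02 for the mean, beside −0.0099, −0.0010, −0.0076 and −0.011 for all genes tested.

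For the mean over time points the 95% intervals give the size of change that these data allow. In the fit of 6 groups the interval lay within a 2-fold change in either direction for 31 of 32 members, all but MDC1, and within 1.5-fold for 27. With the replicate block it lay within 1.5-fold for 32 of 32. By role, the median difference was −0.01 for the 5 kinases, 0.06 for the 4 chromatin adaptors, −0.05 for the 9 recombination genes, −0.01 for the 5 tested end-joining genes, −0.03 for the 7 end-processing genes and −0.02 for PARP1 and POLQ. With the replicate number as a block the smallest adjusted p of a member was 0.788 at time point 0, 0.996 at 20, 0.997 at 40 and 0.880 for the mean. At the single time points 0, 20 and 40, fewer intervals were this narrow. In the fit of 6 groups they lay within 2-fold for 28, 27 and 27 of 32 members, and within 1.5-fold for 17, 15 and 14. With the block they lay within 1.5-fold for 30, 28 and 25.

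PALB2 was the 1 member with an unadjusted p under 0.05 at time point 0. It had 22.0, 19.5 and 23.1 CPM with DMSO and 26.7, 24.4 and 27.4 CPM with etoposide, so the groups did not overlap and all 3 replicates were higher with etoposide. The log2 difference was 0.28 (SE 0.13, edgeR adjusted p = 0.9999, or 0.788 when blocked on replicate), which does not pass the threshold. At time points 20 and 40 the arms overlapped, with 22.7 to 25.2 CPM against 22.1 to 24.4 CPM at 20 and 19.8 to 22.2 CPM against 16.8 to 22.3 CPM at 40. No share of all genes without overlap is given, here or over time, so a lack of overlap alone is not read as a difference.

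**Figure D2:**
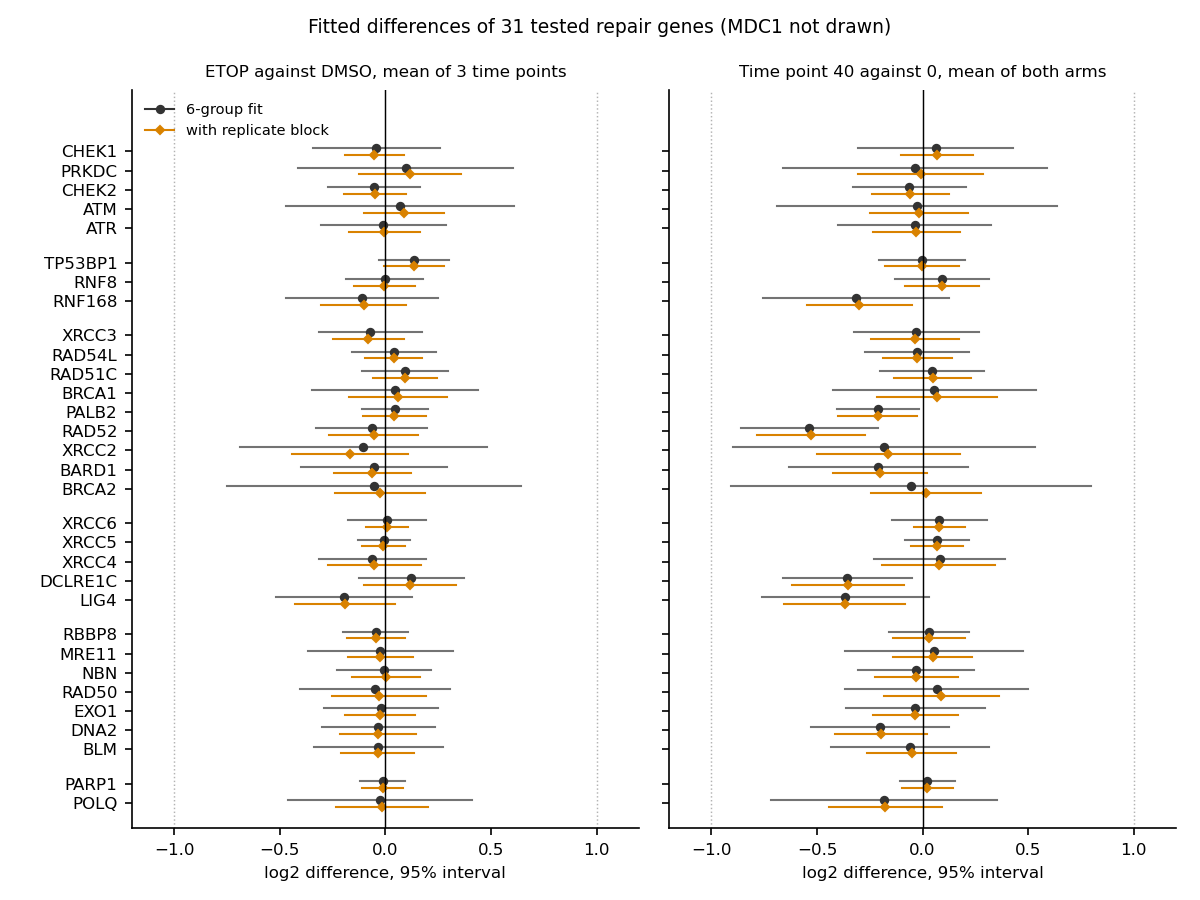
Log2 differences with 95% intervals of 31 tested genes, grouped by role, for etoposide against DMSO (left, mean of 3 time points) and time point 40 against 0 (right, mean of both arms); circles are the fit of 6 groups, diamonds the fit with the replicate number as a block, dotted lines a 2-fold change. In the left panel no adjusted p is under 0.05, and in the right panel RAD52 lies farthest below 0.

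The second question was how the RNAs changed over the time points of triptolide. In the change from 0 to 40 averaged over the arms, RAD52 had the lowest log2 value of the 32 tested members, and it was called in the fit with a replicate block but not in the fit of 6 groups. With DMSO, RAD52 had 14.1, 18.7 and 15.0 CPM at time point 0, 12.5, 15.2 and 14.6 CPM at 20 and 8.34, 11.4 and 15.0 CPM at 40. With etoposide it had 11.9, 17.3 and 19.2 CPM at 0, 11.9, 14.6 and 13.8 CPM at 20 and 11.7, 9.75 and 10.1 CPM at 40. Replicates 1 and 2 were lower at 40 than at 0 with DMSO while replicate 3 was not. With etoposide all 3 were lower and the groups at 0 and 40 did not overlap. In replicate 1 with etoposide, however, the value barely moved, from 11.9 to 11.7 CPM (126 and 127 counts). These values rest on 87 to 227 counts per library at these 2 time points.

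Averaged over both arms, RAD52 was lower at 40 than at 0 by 0.54 on the log2 scale (log2 −0.54, SE 0.15, edgeR adjusted p = 0.183), which does not pass the threshold. With the replicate number as a block, RAD52 fell by 0.53 (SE 0.12, adjusted p = 0.0178), and limma-voom with the block gave an adjusted p of 0.0150. When each library was left out of the blocked fit in turn, the adjusted p was under 0.05 in 4 of 12 fits and ranged from 0.00380 to 0.105. The libraries without which it stayed below 0.05 were ETOP replicate 1 at 0 and at 40 and DMSO replicate 3 at 0 and at 40, so the call was lost without any of the other 8 libraries of these time points. Within the arms, the log2 change was −0.61 with etoposide (SE 0.22, edgeR adjusted p = 0.906, or 0.180 when blocked), and with DMSO RAD52 was not called. The interaction at 40, which tests the difference between the arms, did not call RAD52 either.

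In the change from 0 to 40 averaged over the arms, 0 of 32 members were called in the fit of 6 groups, where 0.916% of all genes were called, all of them lower. With the block, 1 of 32 was called (RAD52), where 2.31% of all genes were called. At an unadjusted p under 0.05 there were 3 members (background 4.92%), RAD52, PALB2 and DCLRE1C, all lower. The counts in the single arms were 0 of 32 with DMSO (background 0.423%, or 1.23% with the block) and 0 of 32 with etoposide (background 0.204%, or 1.01% with the block). From 0 to 20 no member was called with DMSO (0 of 32, background 0%) or with etoposide (0 of 32, background 0%), in either fit. At an unadjusted p under 0.05 the 0 to 40 counts were 0 members with DMSO (background 4.05%) and 2 with etoposide (background 3.02%), and the 0 to 20 counts were 0 with DMSO (1.4%) and 0 with etoposide (1.02%).

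The median log2 change of the members from 0 to 40 was −0.03 averaged over the arms, −0.02 with DMSO and −0.02 with etoposide, beside 0.011, 0.0047 and 0.0033 for all genes. The 95% interval of the averaged change lay within 2-fold for 31 of 32 members and within 1.5-fold for 21, and with the block within 2-fold for 32 and within 1.5-fold for 29. MYC, whose mRNA is short-lived, fell from 59.97 ± 8.538 to 14.83 ± 4.004 CPM with DMSO and from 45.5 ± 11.6 to 16.8 ± 3.25 CPM with etoposide (SD, n = 3 each; averaged log2 change −1.73, SE 0.18, edgeR adjusted p = 4.17e-05). By role, the median change was −0.04 for the kinases, 0.04 for the chromatin adaptors, −0.06 for the recombination genes, 0.07 for the end-joining genes, −0.03 for the end-processing genes and −0.08 for PARP1 and POLQ. The Ku genes were not called, with XRCC5 at 506 ± 23.2 and 542 ± 24.3 CPM at 0 and 40 with DMSO and at 502 ± 10.4 and 515 ± 1.72 CPM with etoposide.

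PALB2 and DCLRE1C were the other members with an unadjusted p under 0.05 over time in the fit of 6 groups. PALB2 was at 26.7, 24.4 and 27.4 CPM at 0 and at 16.8, 20.1 and 22.3 CPM at 40 with etoposide, where the groups did not overlap. With DMSO it was at 22.0, 19.5 and 23.1 CPM and then at 22.2, 21.9 and 19.8 CPM, where they did. The log2 change of PALB2 was −0.41 with etoposide (SE 0.13, edgeR adjusted p = 0.609) and −0.21 averaged over the arms (SE 0.09, adjusted p = 0.839). PALB2 was also the 1 member with an unadjusted p under 0.05 in the interaction at 40, where the DMSO change is subtracted from the etoposide change (log2 −0.39, SE 0.18, edgeR adjusted p = 0.9997, or 0.992 when blocked). The change with etoposide, the difference between the arms at time point 0 and the interaction share the etoposide libraries of time point 0. In the interaction 0 of 32 members were called (background 0% in either fit), beside 1.33% of all genes at an unadjusted p under 0.05.

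DCLRE1C was at 11.8, 14.4 and 13.0 CPM at 0 and 7.96, 10.9 and 10.3 CPM at 40 with DMSO, without overlap. With etoposide it was at 10.9, 17.3 and 12.9 CPM and then at 10.1, 11.3 and 12.3 CPM, with overlap. Its averaged log2 change was −0.36 (SE 0.14, edgeR adjusted p = 0.722, or 0.275 when blocked). LIG4, which acts in the same pathway, was at 15.0, 11.9 and 17.3 CPM at 0 and 12.8, 7.75 and 11.4 CPM at 40 with DMSO, with overlap, and was not called in either fit.

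**Figure D3:**
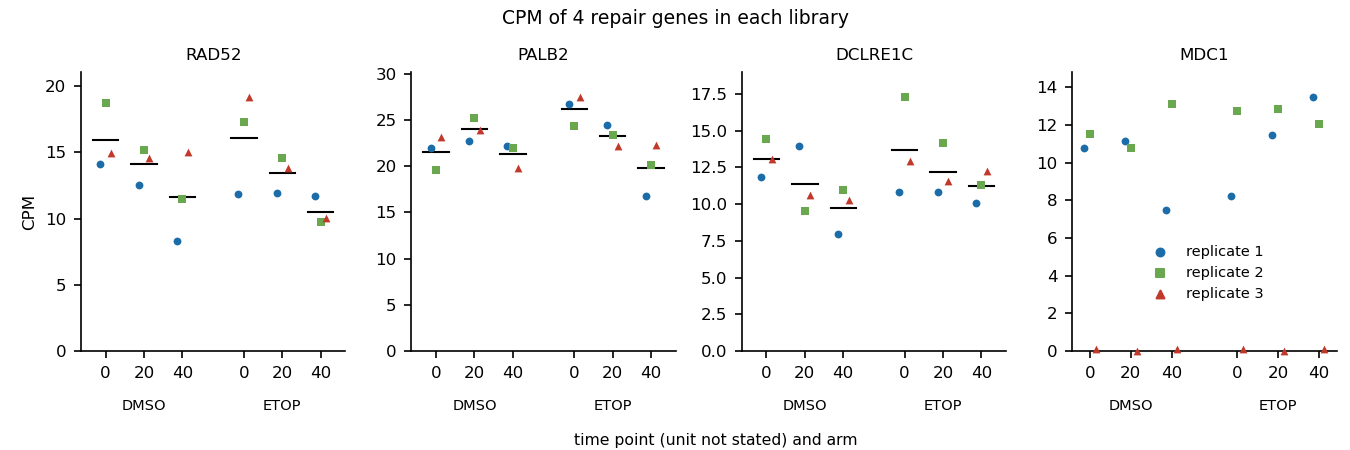
CPM of RAD52, PALB2, DCLRE1C and MDC1 in each library by time point (unit not stated) and arm; points are libraries by replicate number and bars, where drawn, are group means of 3 libraries. RAD52 at time point 40 with etoposide lies at 9.75 to 11.7 CPM, below its values at 0, and MDC1 lies at or near 0 in all libraries of replicate 3.

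Calls among the other genes of the break response are given beside the share of all genes called. From 0 to 40 averaged over the arms, 0 of 15 tested checkpoint genes, 0 of 20 chromatin response genes, 0 of 28 recombination genes, 0 of 15 end-joining genes and 0 of 17 Fanconi genes were called in the fit of 6 groups. The share of all genes called there was 0.916%. With the block, WEE1, the kinase that holds CDK1 inactive, and RNF169, a reader of ubiquitin marks at breaks, were called lower. They were 1 of 15 checkpoint genes and 1 of 20 chromatin response genes, where 2.31% of all genes were called. The recombination, end-joining and Fanconi lists held 0 called genes with the block. WEE1 went from 106 ± 14.7 to 80.6 ± 7.24 CPM with DMSO and from 98.2 ± 16.3 to 66.0 ± 14.9 CPM with etoposide (log2 −0.49, SE 0.07, blocked edgeR adjusted p = 0.000138, and 0.0902 without the block). RNF169 had an averaged log2 change of −0.47 (SE 0.08, blocked adjusted p = 0.00115, and 0.590 without the block). The 2 cycling lists held 0 called genes in either fit of this comparison.

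Of 18 p53 target genes tested, PLK2 and BTG2 were called lower from 0 to 40 averaged over the arms, and PLK3 as well with the block. That was 2 of 18 (background 0.916%) and, with the block, 3 of 18 (background 2.31%). The list was chosen with earlier results of these data known. PLK2, a polo-like kinase gene, fell from 951 ± 218 to 283 ± 123 CPM with DMSO (log2 −1.75, SE 0.32, edgeR adjusted p = 0.0217). Between etoposide and DMSO at 40, BTG2, an antiproliferative gene, was called in the blocked fit and was the 1 gene of these lists called there. DESeq2 called 1 gene of the p53 list in this comparison, and limma-voom and the edgeR fit of 6 groups called 0. BTG2 was at 5.36 ± 2.82 CPM with etoposide and 0.498 ± 0.351 CPM with DMSO (log2 3.37, SE 0.45, blocked edgeR adjusted p = 0.00282, and 0.326 without the block). The DMSO level lay near the floor of 0.259 to 0.377 CPM, and the lowest BTG2 value of the 18 libraries, 0.192 CPM, lay below that floor. In that blocked fit BTG2 was the 1 gene called among all tested (background 0.00705%), and for the mean of the time points 4 genes were called (0.0282%), BTG2 among them, with 0 of 32 members in both. CDKN1A, which encodes the p53-induced cell cycle inhibitor p21, was at 224 ± 40.3 and 209 ± 53.8 CPM at time point 0 and at 166 ± 12.8 and 214 ± 49.6 CPM at 40 (DMSO, then etoposide), and was not called between the arms in either fit.

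The largest split among the members was between replicate numbers, in both arms and at all time points. MDC1 had 7.48 to 13.5 CPM in the 12 libraries of replicates 1 and 2 and 0 to 0.1105 CPM in the 6 libraries of replicate 3, where it had 0 or 1 count. It lies at 30699807 to 30717889 on chromosome 6 (GRCh38), in the major histocompatibility complex region, and any part of this location was not tested. Such a drop was not particular to MDC1, whose log2 ratio of replicate 3 to replicates 1 and 2 was −6.09. Ratios as low were found for CD99 (−10.02), SMARCB1 (−9.29) and NSF (−6.46). Of 12168 tested coding genes, 363 had a ratio beyond ±1.5, in either direction. For etoposide against DMSO over the time points, the 95% interval of MDC1 on the log2 scale was −2.21 to 2.45 in the fit of 6 groups and −0.17 to 0.41 with the block. In the column headers of the deposited files, those of replicate 3 carry an ending that the others lack.

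BRCA2 stood at 6.79 to 12.8 CPM in replicates 1 and 2 and at 17.9 to 25.3 CPM in replicate 3, without overlap. ATM stood at 43.5 to 77.6 CPM against 83.8 to 117 CPM, and PRKDC at 132 to 249.6 CPM against 250.6 to 394 CPM. XRCC6 showed the opposite order, with means of 490 CPM in replicates 1 and 2 and 405 CPM in replicate 3. Of 32 tested members, 7 had all replicate 3 libraries above all others (background 9.83%), namely BRCA2, XRCC2, ATM, PRKDC, MRE11, CHEK1 and BLM, and 1 had them all below (MDC1, background 9.04%). The median log2 ratio of replicate 3 to replicates 1 and 2 was 0.34 for the members and −0.03 for all genes tested.

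This ratio moved with mRNA length, and long mRNAs were common among the members. Of 33 members, 7 had an mRNA of 8 kb or more (21.2%), against 7.38% of tested coding genes. Over 31 members the ratio had a Spearman rho of 0.50 and a Pearson r of 0.54 with the log2 length, and over 12168 tested coding genes a rho of 0.44 and an r of 0.22. These are correlations across genes of the same 18 libraries, and genes are not independent replicates. Coding genes under 2 kb had a median log2 ratio of −0.24 and those of 10 kb and over 0.39. The 4 members of 10 kb and over had a median of 0.82, with TP53BP1 as the exception at 0.01. The part of length, of library preparation and of the cells in this split was not tested. With the block on replicate number the intervals of ATM and BRCA2 were narrower, as the plot of fitted differences shows.

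**Figure D4:**
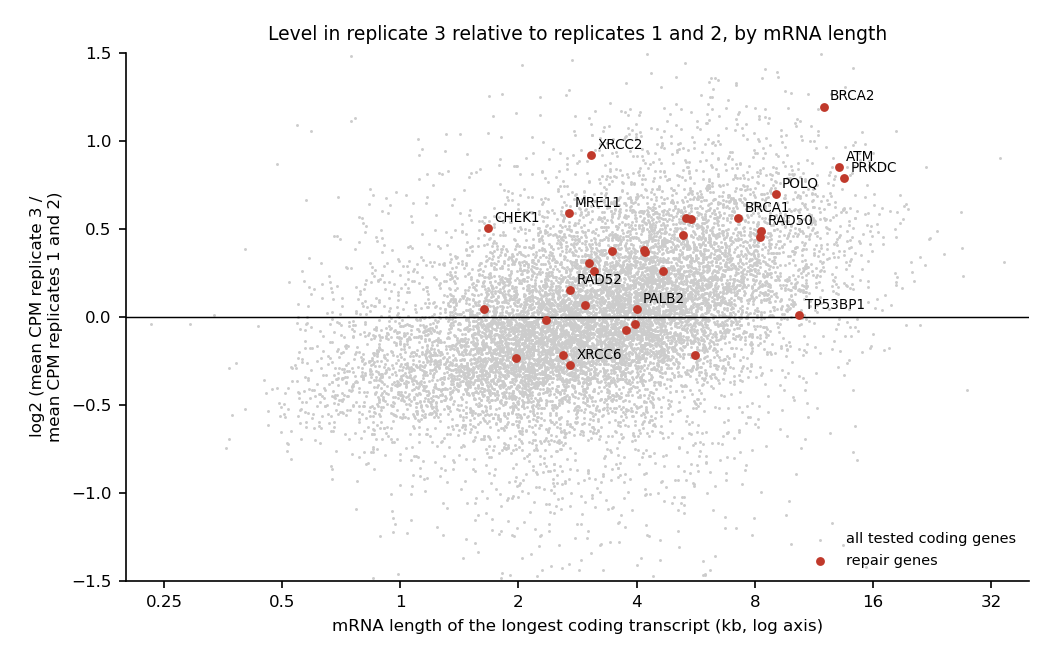
Log2 ratio of mean CPM in replicate 3 to replicates 1 and 2 against mRNA length (log axis) for 31 repair genes (red) and the tested coding genes whose ratio lies within ±1.5 (grey, 11805 of 12168). BRCA2, ATM and PRKDC lie at the upper right, and TP53BP1 lies at 0.01 in spite of its length.

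A single library also stood apart. In replicate 2 of the etoposide group at time point 20, 30 of 31 members (without MDC1) lay above their mean over the replicate 2 libraries, with a median log2 deviation of 0.23 beside 0.02 for all genes. The 7 members of 8 kb and over had a median deviation of 0.36 there, and all 898 tested coding genes of that length had one of 0.17. In the other 17 libraries this median deviation of the members ranged from −0.10 to 0.11. The library had the fewest genes with a count, 17854.

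In the RefSeq table of promoters (GRCh38.p14, 250 bases before to 50 after the start), 29 of 33 members had an entry. The letters CCGGAAGT, the core of a binding site of ETS factors, were found on either strand in 8 of these 29 (27.6%) and in 4.95% of all symbols of the table. The members were BRCA2, DCLRE1C, LIG4, MRE11, PALB2, POLQ, RAD50 and RNF168. CCAAT was found in 16 (55.2%, against 39.7% of all symbols), the E2F letters TTTCCCGC, TTTCGCGC, TTTGCCGC or TTTGGCGC in 3 (10.3% against 3.99%) and the cell cycle homology letters TTTGAA or TTCGAA in 3 (10.3% against 19.5%). Both strands were searched and shares were counted over symbols. The 27305 symbols of the table were not limited to tested or coding genes, so these shares are not a background of expressed genes. A match is a run of letters and not a bound site.

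To show where the ETS letters lie, 60 bases around them are printed for 4 genes of different roles, 5′ to 3′ on the gene's strand, with the match in capitals (ACTTCCGG is the same site read on the other strand). The windows are at chr16:23641438-23641497 (minus strand, PALB2), chr13:108218459-108218518 (minus strand, LIG4), chr3:121546064-121546123 (minus strand, POLQ) and chr5:132556860-132556919 (plus strand, the second of 2 matches of RAD50).
PALB2: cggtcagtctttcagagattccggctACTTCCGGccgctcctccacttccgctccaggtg
LIG4: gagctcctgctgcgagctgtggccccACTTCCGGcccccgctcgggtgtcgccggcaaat
POLQ: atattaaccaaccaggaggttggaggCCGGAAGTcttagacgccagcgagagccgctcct
RAD50: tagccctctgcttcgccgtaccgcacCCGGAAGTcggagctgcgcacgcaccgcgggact
In PALB2 and LIG4 the start of a coding gene on the other strand lies 82 bp (DCTN5) and 11 bp (ABHD13) upstream, so these windows also lie at the start of the neighbour. PRKDC and MCM4 start 2 bp apart, XRCC6 and DESI1 23 bp apart and BRCA2 and ZAR1L 130 bp apart.

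TATTTAT, an AU-rich stretch of the kind found in short-lived mRNAs, was present in the 3′ untranslated region of 9 of 33 members (27.3%) and of 31.9% of tested coding genes. RAD52 and PALB2 each held 1, shown here because both are named in the change from 0 to 40, at chr12:913113-913141 and chr16:23603170-23603191 (both minus strand, GRCh38, from GENCODE 29).
RAD52: aggcttcccacTATTTATtactgaactat
PALB2: atggcaataaaTATTTATtttt
The 9 members with the letters, all tested, had a median log2 change from 0 to 40 of −0.0039 and a range of −0.54 to 0.09, and the 23 tested members without them had a median of −0.03 and a range of −0.37 to 0.09. The ranges overlapped, and the part of these letters in the change was not tested. GGACT, letters at which m6A methylation of mRNA occurs, was present in the mRNA of 31 of 33 members (93.9%, against 91.3% of tested coding genes), with a median of 0.740 per kb against 0.935 per kb.

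RAD52 lies at 912077 to 990053 on chromosome 12 (ENSG00000002016, minus strand), PALB2 at 23603160 to 23641310 on chromosome 16 (ENSG00000083093, minus strand) and DCLRE1C at 14897359 to 14954432 on chromosome 10 (ENSG00000152457, minus strand), all in GRCh38. In RAD52, 5.56% of the exonic bases are shared with AC004803.1, a gene annotated on the same strand.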

How the data were processed

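Stranded mRNA libraries of 18 samples were analysed as raw counts per Ensembl gene that the authors deposited without normalization. Per the submitters' processing notes, bcl2fastq, HISAT2 and featureCounts were used with GRCh38. Their versions, the annotation release and the strand setting: not given in the sources used here. Libraries held 7957691 to 11580219 counts (median 10114787.5), so 3 counts equal 0.259 to 0.377 CPM. Groups came from the sample labels. The 33 members, the role and pathway lists and the motifs were chosen with earlier results of these data known.

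Counts were tested with edgeR 4.0.16 (R 4.3.3, quasi-likelihood, robust, TMM factors 0.976 to 1.02) in 1 model of 6 groups over 18 libraries, with 12 residual degrees of freedom before moderation. Its default filter left 14186 genes with 99.8% of counts, and p-values were adjusted by Benjamini-Hochberg over them at a threshold of 0.05. Alternatives were DESeq2 1.42.0, limma-voom (limma 3.58.1), other scaling, no filter, fewer groups, omitted libraries and a replicate block. Removal of the mRNA length trend (lowess, span 0.3) was added after the data were seen. The edgeR script was checked on simulated counts. RPKM used the mRNA of the longest-coding transcript in GENCODE 29, and ratios to replicates 1 and 2 used mean CPM.

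The labels' replicate numbers were taken to pair the libraries. Deviations from group means correlated within all 45 same-number pairs (0.336 to 0.918, minimum set 0.1), and all 18 libraries correlated best with their own number. Pairs of different numbers, with number 3 left out, correlated at 0.159 to 0.644. They passed the minimum too and overlapped the range of the same-number pairs. The minimum therefore cannot decide whether the numbers other than 3 pair the libraries. Libraries of number 3 correlated negatively with the others, and the first principal component of these deviations held 75.8% of the variance. The deviations of the 3 libraries of a group sum to 0 for each gene, so the negative sign is in part built in.

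All 33 members may be named with levels. A log2 change with p was printed only for a member with an unadjusted p under 0.05 in that comparison, or called in either fit; from other lists, genes called in either fit (at most 5 per list and comparison) and 6 check genes could be named.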

Additional observations from a re-analysis of the deposited data

How the results depend on the processing

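The count of members called from 0 to 40 averaged over the arms was 0 in the fit of 6 groups. It was 1 (RAD52) with the replicate block, with limma-voom and the block, and with the block after removal of the mRNA length trend, an alternative chosen after seeing the data. With the block and 1 library left out it ranged from 0 to 1, and likewise from 0 to 1 for the change with etoposide. The block changed no other call of a member. Without the block, the median log2 change of the members crossed 0 in every comparison when 1 library or 1 replicate number was left out. With the block and 1 library left out it also crossed 0, except for etoposide against DMSO at 40 (−0.079 to −0.010). It ranged from −0.199 to 0.183 for etoposide against DMSO at 0 (−0.081 to 0.043 with the block), from −0.048 to 0.162 at 20 (−0.042 to 0.184 with the block), from −0.183 to 0.0516 at 40, from −0.068 to 0.042 for the mean (−0.066 to 0.010 with the block) and from −0.217 to 0.0996 in the interaction. From 0 to 20 it ranged from −0.168 to 0.0958 with DMSO and from −0.130 to 0.133 with etoposide. From 0 to 40 it ranged from −0.197 to 0.124 with DMSO (−0.084 to 0.043 with the block), from −0.194 to 0.0846 with etoposide (−0.049 to 0.036 with the block) and from −0.0983 to 0.0403 averaged (−0.054 to 0.019 with the block). The extremes without the block came from leaving out single replicate 3 libraries, except both at 20 (without replicate 1 or 2) and the lowest from 0 to 20 with etoposide (without replicate 2). No member reversed a called direction. The cause was not tested. Counts were few for NHEJ1, at 0 to 6 per library, and for MDC1 in replicate 3, at 0 or 1. In replicates 1 and 2 MDC1 had 78 to 149 counts. Total counts were 7957691 to 11580219 in the replicate 3 libraries and 8758232 to 11426144 in those of replicates 1 and 2. Why MDC1 was low in replicate 3 was not tested.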
